A study of Mus musculus with 20 samples.

Results

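Hpse2, Nrn1, Rfx4, Lix1, Hmgb1, Car14 and Edn2 are 7 genes, of 19936 measured, that were picked because their transcripts stood higher in mouse limbs that lacked Lmx1b. They were chosen by the knockout minus wild-type log2 values of these same arrays, so those values are given below as a description, with no test. Lmx1b encodes a LIM-homeodomain transcription factor that is made in dorsal limb mesenchyme and gives the limb its dorsal pattern. Without it the back of the limb takes on ventral features. The 7 genes encode a heparan sulfate binding protein, a neurite growth factor, a transcription factor, a cytoplasmic protein named for the limb, a chromatin protein, a carbonic anhydrase and a vasoactive peptide.

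Each array held cDNA of 1 whole limb, with both its dorsal and its ventral tissue, from a 129Sv embryo at embryonic day 13.5. The 20 arrays split evenly by genotype, wild type or Lmx1b -/-, and by limb, fore or hind, which made 4 sets of 5. Each set had 3 right and 2 left limbs. Replicates carry the numbers of the titles, 1 to 5 for forelimbs and 6 to 10 for hindlimbs. The labels do not tell which limbs came from the same embryo, so a p-value speaks only of the spread among the limbs measured. In a whole limb, fewer cells of a type and less RNA per cell cannot be told apart.

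Lmx1b was lower on all 10 knockout arrays than on the wild-type arrays of the same limb type, which checks the labels. On the log2 scale the 11 limb mesenchyme markers averaged 7.83 to 8.05 in wild-type forelimbs and 8.06 to 8.28 in knockout forelimbs. They averaged 8.12 to 8.17 in wild-type and 8.09 to 8.25 in knockout hindlimbs. Sex, read from 3 Y-linked genes, was uneven: all 5 wild-type forelimbs were male, 3 of 5 knockout forelimbs were female, and each hindlimb group had 3 male and 2 female limbs. The mean level of 16 skeletal muscle genes was 7.69 to 8.12 in wild-type forelimbs and 7.31 to 7.69 in knockout forelimbs. It was 6.97 to 7.40 in wild-type and 7.04 to 7.38 in knockout hindlimbs. The mean of 5 erythroid genes was 7.98 to 8.34 in wild-type and 6.88 to 7.88 in knockout forelimbs. The muscle ranges of the forelimb groups met at 7.69, and the mesenchyme and erythroid ranges did not overlap.

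Promoter sequence was matched by symbol for 6 of the 7 genes, all but Nrn1, from RefSeq on GRCm38.p6. The 4 stretches here are the bases just before the first start site of Rfx4 and Lix1, whose levels were most alike among the 7, of Hmgb1, whose probe sets are compared below, and of Edn2, the gene that differed from the others in forelimbs. They lie at chr10:84755798-84756035 (plus strand), chr17:17402436-17402685 (plus), chr5:149053058-149053307 (minus) and chr4:120160956-120161205 (plus). Capitals mark TAAT on either strand, the core that homeodomain proteins bind.
Rfx4: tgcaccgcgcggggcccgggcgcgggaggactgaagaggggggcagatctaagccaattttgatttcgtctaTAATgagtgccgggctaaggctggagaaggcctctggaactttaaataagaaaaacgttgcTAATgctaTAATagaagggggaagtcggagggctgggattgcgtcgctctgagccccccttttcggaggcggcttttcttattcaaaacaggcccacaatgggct
Lix1: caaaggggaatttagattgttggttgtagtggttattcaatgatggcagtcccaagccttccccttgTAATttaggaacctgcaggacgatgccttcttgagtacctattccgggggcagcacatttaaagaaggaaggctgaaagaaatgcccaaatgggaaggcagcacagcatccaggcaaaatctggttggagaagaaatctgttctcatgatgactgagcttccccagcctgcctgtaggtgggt
Hmgb1: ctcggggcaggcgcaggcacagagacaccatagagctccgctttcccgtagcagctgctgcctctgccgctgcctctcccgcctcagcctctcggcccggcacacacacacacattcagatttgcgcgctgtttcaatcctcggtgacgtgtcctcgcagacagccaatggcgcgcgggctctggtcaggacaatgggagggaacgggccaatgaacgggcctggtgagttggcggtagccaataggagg
Edn2: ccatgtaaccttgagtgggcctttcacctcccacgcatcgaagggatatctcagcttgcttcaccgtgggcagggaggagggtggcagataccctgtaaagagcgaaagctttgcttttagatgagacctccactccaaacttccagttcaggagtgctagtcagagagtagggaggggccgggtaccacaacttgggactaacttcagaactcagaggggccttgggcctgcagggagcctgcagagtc
The Rfx4 stretch held 3 TAAT cores and the Lix1 stretch 1, and none was found in those of Hmgb1 and Edn2. Over the full 250 bases before a start site, TAAT or ATTA occurred at 5 of the 8 start sites listed for the 6 genes and in 54.9% of 32851 mouse promoters. The 5 were both sites of Rfx4, with 3 and 4 matches, and those of Hpse2, Lix1 and Car14, with 1 each. The longer palindrome TAATTA occurred in 4.84% of them and in none of the 8 start sites. The Hmgb1 stretch held 3 CCAAT boxes, counted as CCAAT or ATTGG, a motif found in 33.8% of promoters.

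Hpse2 showed the largest genotype difference over both limb types among the 7. Its product, heparanase 2, is a relative of heparanase that binds heparan sulfate but has no known cleaving activity. The log2 levels of Hpse2 in wild-type forelimbs were 6.61, 6.29, 6.34, 6.06 and 6.31. In knockout forelimbs they were 7.16, 7.02, 7.21, 7.42 and 6.75. The 2 forelimb groups did not overlap. In hindlimbs Hpse2 stood at 6.03, 6.12, 6.31, 6.07 and 6.13 in wild type. It stood at 6.24, 6.67, 6.87, 6.80 and 7.03 in knockouts. Knockout replicate 6, at 6.24, was the 1 knockout hindlimb inside the wild-type range. The genotype difference was 0.79 on the log2 scale (SE 0.129, n = 5 per group) in forelimbs, a 1.73-fold ratio, and 0.59 (SE 0.129) in hindlimbs.

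Rfx4 was the gene with the cleanest separation. It encodes a winged-helix factor of the RFX family, which in the mouse is known from the developing brain and from genes of the primary cilium. Rfx4 had log2 levels of 4.26, 4.20, 4.08, 4.07 and 4.12 in wild-type forelimbs. In knockout forelimbs it had 4.78, 5.02, 4.70, 4.71 and 4.55. All 5 knockout forelimbs lay above the wild-type ones. In wild-type hindlimbs Rfx4 was at 4.07, 4.03, 4.08, 4.10 and 4.10, a spread of only 0.028 (SD, n = 5). In knockout hindlimbs it was at 4.41, 4.14, 4.44, 4.27 and 4.40. The groups did not overlap there either, although replicate 7, at 4.14, came within the wild-type forelimb range. The difference was 0.61 (SE 0.074) in forelimbs and 0.26 (SE 0.074) in hindlimbs. Rfx4 was dim on the array, with 30.2% of genes below its mean level. With 16 added to the intensities the forelimb difference shrank to 0.35 and the hindlimb difference to 0.14.

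Nrn1 encodes neuritin, a small membrane-anchored protein that promotes the growth of neurites. It was higher in knockout forelimbs by the widest margin among the 7. Its log2 levels were 5.71, 5.73, 5.75, 5.46 and 5.52 in wild-type forelimbs and 6.54, 6.26, 6.98, 6.29 and 6.49 in knockout forelimbs. The lowest knockout forelimb, at 6.26, lay above the highest wild-type one, at 5.75. In hindlimbs Nrn1 was at 5.63, 6.08, 5.86, 5.29 and 5.46 in wild type and at 5.82, 5.99, 6.10, 6.02 and 5.84 in knockouts. There the groups overlapped, and only replicate 8, at 6.10, exceeded the highest wild-type hindlimb. The difference was 0.88 (SE 0.133) in forelimbs, a 1.84-fold ratio, and 0.29 (SE 0.133) in hindlimbs, a 1.22-fold ratio.

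Lix1, named limb expression 1 after its transcript in the chick limb, ranged from 7.13 to 7.51 in wild-type and from 7.54 to 8.22 in knockout forelimbs. The forelimb groups did not overlap. In hindlimbs Lix1 ranged from 6.89 to 7.47 in wild type and from 7.36 to 7.80 in knockouts, with 3 of 5 knockout limbs above the wild-type range. Its difference was 0.49 (SE 0.119) in forelimbs and 0.40 (SE 0.119) in hindlimbs, the most even pair among the 7.

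Car14 encodes a membrane-bound carbonic anhydrase, which turns carbon dioxide into bicarbonate outside the cell. It was at 6.30, 6.13, 6.15, 6.16 and 5.61 in wild-type forelimbs and at 6.71, 6.69, 6.38, 7.13 and 6.54 in knockout forelimbs. These groups did not overlap, and wild-type replicate 5 was well below the rest. In hindlimbs Car14 was at 6.75, 6.70, 6.65, 6.95 and 6.81 in wild type and at 6.87, 6.89, 7.01, 7.11 and 7.10 in knockouts. Of the knockout hindlimbs, 3 of 5 exceeded the wild-type range. The difference was 0.62 (SE 0.121) in forelimbs and 0.23 (SE 0.121) in hindlimbs. With the muscle list as a covariate the forelimb difference of Car14 was 0.34. Its deviations from the group means ran against those of the epidermis (r = -0.71 over 20 arrays), muscle (r = -0.60) and macrophage (r = -0.59) lists and with those of the limb mesenchyme list (r = 0.63). Apart from muscle, the part of these tissues in its level was not tested.

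Edn2 went against the description that chose it. It encodes endothelin 2, a short peptide that acts on the endothelin receptors of blood vessels and other tissues. In wild-type forelimbs Edn2 was at 4.52, 4.60, 4.65, 4.65 and 4.83, and in knockout forelimbs at 4.60, 4.54, 4.60, 4.52 and 4.72. Every knockout forelimb lay within the wild-type range. In wild-type hindlimbs Edn2 was at 4.49, 4.37, 4.56, 4.29 and 4.44, and in knockout hindlimbs at 4.81, 4.62, 4.73, 4.74 and 4.78. All 5 knockout hindlimbs lay above all 5 wild-type ones. The difference was 0.31 (SE 0.064) in hindlimbs, a 1.24-fold ratio, and -0.05 (SE 0.064) in forelimbs. Levels in knockout hindlimbs overlapped those of forelimbs of both genotypes. The hindlimb difference was 0.18 with 16 added to the intensities.

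**Figure D1:**
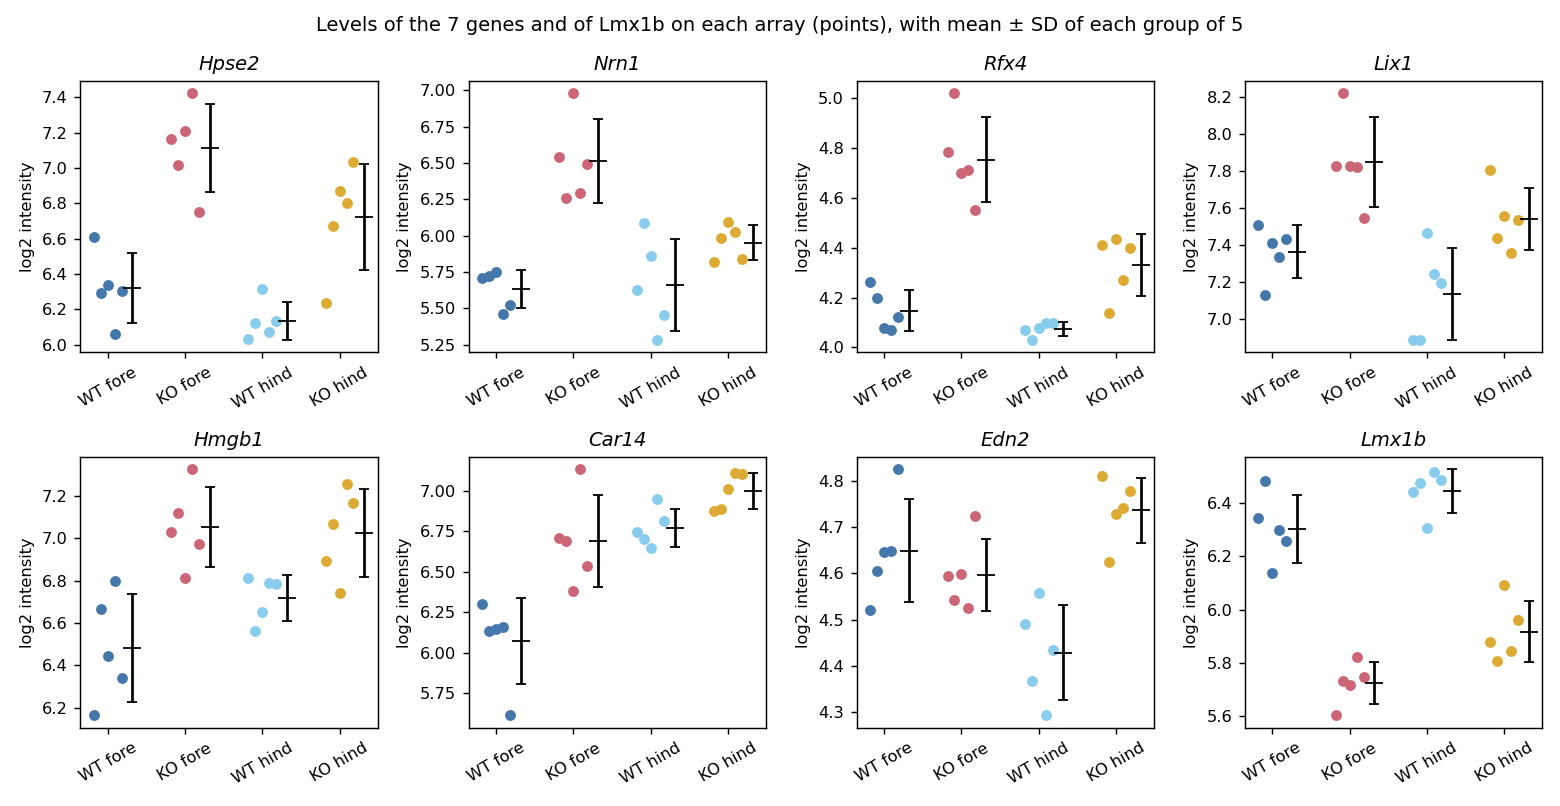
Log2 intensity of each of the 7 genes and of Lmx1b on the 20 arrays, 1 panel a gene with its own axis. Points are arrays (WT wild type, KO knockout, fore and hind limb), and black bars are the mean ± SD of each group of 5. Knockout forelimbs sit above wild-type forelimbs in 6 panels, and in the Edn2 panel only the hindlimb groups part.

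Across the 7 genes, 6 had all 5 knockout forelimbs above all 5 wild-type forelimbs, a pattern met by 0.813% of all genes. In hindlimbs Rfx4 and Edn2 did so, against 0.587% of all genes, and Rfx4 alone did so in both limb types, against 0.0351%. These counts come from the contrast that chose the genes and carry no weight as evidence. In the fit over both limb types, 0.466% of all genes were called higher in knockouts and 1.57% lower. Those shares are 93 and 313 genes, and 194 and 258 genes after centring each array on its median. The differences of the 7 were 0.69 for Hpse2, 0.58 for Nrn1, 0.44 for Lix1, 0.44 for Hmgb1, 0.43 for Rfx4, 0.42 for Car14 and 0.13 for Edn2. With the 13 male arrays only, of which 2 are knockout forelimbs, the forelimb differences were 0.64 for Hpse2, 0.88 for Nrn1, 0.52 for Rfx4, 0.32 for Lix1, 0.52 for Hmgb1, 0.55 for Car14 and 0.01 for Edn2. The hindlimb differences in these arrays were 0.49 for Hpse2, 0.49 for Nrn1 in place of 0.29, 0.19 for Rfx4, 0.43 for Lix1, 0.28 for Hmgb1, 0.12 for Car14 in place of 0.23, and 0.32 for Edn2.

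**Figure D2:**
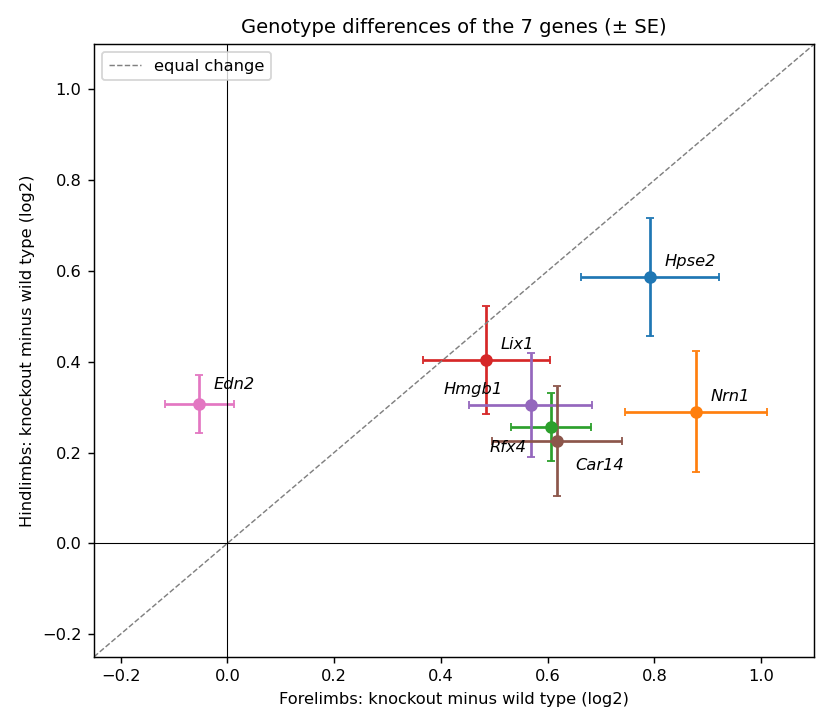
Knockout minus wild type on the log2 scale in forelimbs (horizontal) and hindlimbs (vertical) for the 7 genes, with bars of 1 standard error each way. The dashed line marks equal change. Hpse2, Nrn1, Rfx4, Lix1, Hmgb1 and Car14 lie below the line, Lix1 closest to it, and Edn2 lies above it near 0 on the forelimb axis.

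Hmgb1 encodes an abundant protein that bends DNA in chromatin and that acts as an alarm signal once it leaves the cell. The mouse genome holds many pseudogene copies of it, so its probe sets needed a closer look. The probe set annotated to Hmgb1 alone (10535894) was at 6.16, 6.67, 6.45, 6.80 and 6.34 in wild-type forelimbs and at 7.03, 7.12, 6.81, 7.33 and 6.97 in knockout forelimbs. The groups did not overlap, with 6.80 the highest wild-type and 6.81 the lowest knockout value. In hindlimbs it ranged from 6.56 to 6.81 in wild type and from 6.74 to 7.26 in knockouts, with 4 of 5 knockout limbs above the wild-type range. The difference was 0.57 (SE 0.115) in forelimbs and 0.30 (SE 0.115) in hindlimbs.

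A further 34 probe sets are annotated to Hmgb1 together with its pseudogenes Hmgb1-rs17, Gm5176, Gm12568 or 4932431P20Rik, and were left out of the gene fit. One of them repeats another value for value, which leaves 33. All 33 were higher in knockouts in both limb types, but by less. They were brighter, with mean log2 levels from 7.81 to 11.73 and a median of 10.92, against 6.82 for the probe set of Hmgb1 alone. Their differences over both limb types ran from 0.08 to 0.26 with a median of 0.11, against 0.44 for the probe set of Hmgb1 alone. In forelimbs their median was 0.15 and in hindlimbs 0.07. The 2 with the largest differences, 0.26 each, were 10510227, annotated to Hmgb1 and Gm5176, and 10510194, annotated to Hmgb1, Gm5176 and Hmgb1-rs17. In hindlimbs, 1 of the 33 had all 5 knockout arrays above the wild-type ones, and in forelimbs none had. The 33 sets share probes or near-identical targets and are not independent measures. The size of the Hmgb1 difference therefore depended on the probe set, from 0.08 to 0.44, while the direction did not.

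**Figure D3:**
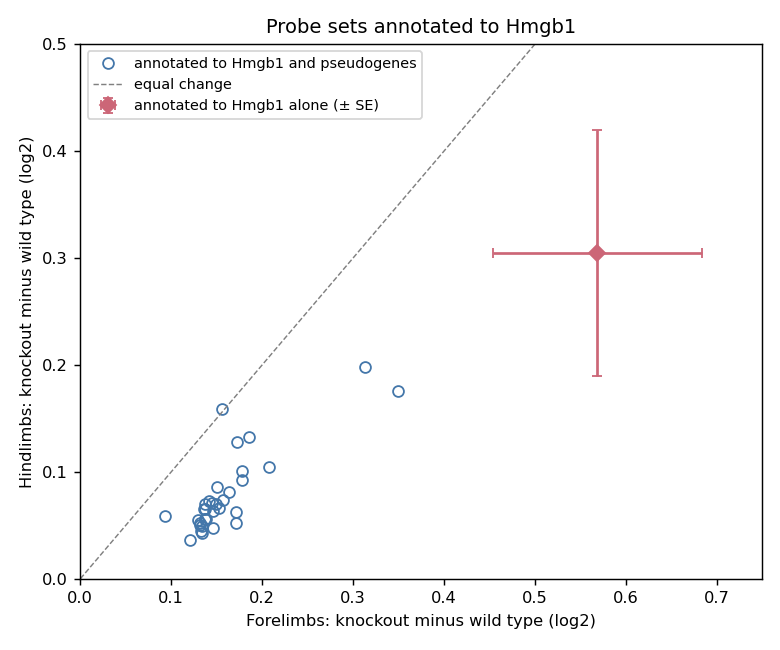
Knockout minus wild type on the log2 scale in forelimbs (horizontal) and hindlimbs (vertical) for 33 probe sets annotated to Hmgb1 with pseudogenes (open circles) and the 1 annotated to Hmgb1 alone (filled diamond, bars of 1 standard error). All lie above 0 on both axes, and the diamond, at 0.57 and 0.30, lies beyond the circles.

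Whether the genotype difference itself differed between limb types was tested in the fit over all genes as the hindlimb difference minus the forelimb difference. This contrast is independent of the mean over both limb types, but values for single limb types were known when the genes were picked. The estimate was -0.59 for Nrn1 (95% interval -0.98 to -0.20), -0.39 for Car14 (-0.75 to -0.04), -0.35 for Rfx4 (-0.57 to -0.13) and 0.36 for Edn2 (0.17 to 0.55). For Hpse2, Hmgb1 and Lix1 the interval included 0, at -0.58 to 0.17, -0.60 to 0.07 and -0.43 to 0.27. None of the 7 passed after adjustment over all genes (limma, adjusted p = 0.815 for Edn2 and 1.00 for the rest), and 4 had an unadjusted p under 0.05, as did 3.63% of all genes. The comparison called 0.0201% of all genes, that is 4 of 19936. The larger forelimb values of Nrn1, Car14 and Rfx4 and the hindlimb value of Edn2 were thus not shown to be specific to a limb type.

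The limb-type contrast is likewise independent of the mean genotype difference, but earlier results of these data were known when the genes were picked. In its test 2 of the 7 passed. Over both genotypes Car14 was higher in hindlimbs and Rfx4 lower. Car14 was higher by 0.50 on the log2 scale (SE 0.086, 95% interval 0.32 to 0.68; limma, adjusted p = 0.000987). In wild type it was 1.62-fold higher in hindlimbs, and all 5 wild-type hindlimbs exceeded every wild-type forelimb. In knockouts it was 1.24-fold higher, and the groups overlapped. The knockout forelimb mean of Car14, 6.69 ± 0.282 (SD, n = 5), lay close to that of wild-type hindlimbs, 6.77 ± 0.116 (SD, n = 5). With the muscle list as a covariate the limb-type difference of Car14 was 0.11 (limma, adjusted p = 0.986), in a fit that called 28 genes. The muscle list itself was lower in hindlimbs, as given above, and its ranges in wild-type forelimbs and wild-type hindlimbs did not overlap. A fit with this covariate therefore cannot well tell limb type from muscle content.

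Rfx4 fell by 0.25 from forelimb to hindlimb (SE 0.053, 95% interval -0.36 to -0.14; limma, adjusted p = 0.00637). In wild type the limb types differed by only -0.07 and overlapped. In knockouts all 5 hindlimbs lay below all 5 forelimbs, by 0.42 on average. How many of all genes part by limb type in this way was not counted, here or for Car14 above. Knockout forelimbs also entered the contrast that chose the genes. The Rfx4 call was lost with male arrays only, where the difference was -0.23 (limma, adjusted p = 0.128). It was also lost when the muscle list entered as a covariate, where the difference was larger, at -0.36 (limma, adjusted p = 0.392). The limit of that covariate given for Car14 holds here as well. Hpse2, Lix1 and Nrn1 had differences of like size, -0.29 (95% interval -0.48 to -0.10), -0.27 (-0.44 to -0.09) and -0.27 (-0.46 to -0.07), that missed the threshold (limma, adjusted p = 0.0654, 0.0607 and 0.102). Each passed under some alternatives, with the lowest adjusted p in limma 0.0247 for Hpse2 without knockout forelimb replicate 5, 0.0106 for Lix1 with array weights and 0.0209 for Nrn1 with male arrays only. Leaving out 1 array also gave a call to Hpse2 (wild-type forelimb 4, knockout hindlimb 10), to Lix1 (wild-type forelimb 2, wild-type hindlimb 8, knockout forelimb 5, knockout hindlimb 6) and to Nrn1 (wild-type hindlimb 7). Hmgb1 (0.10, adjusted p = 0.496) and Edn2 (-0.04, adjusted p = 0.659) did not pass in the limma fit. The comparison called 5.96% of all genes, 1.97% higher and 3.99% lower in hindlimbs, which is 392 and 796 genes, or 724 and 714 after centring each array on its median.

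**Figure D4:**
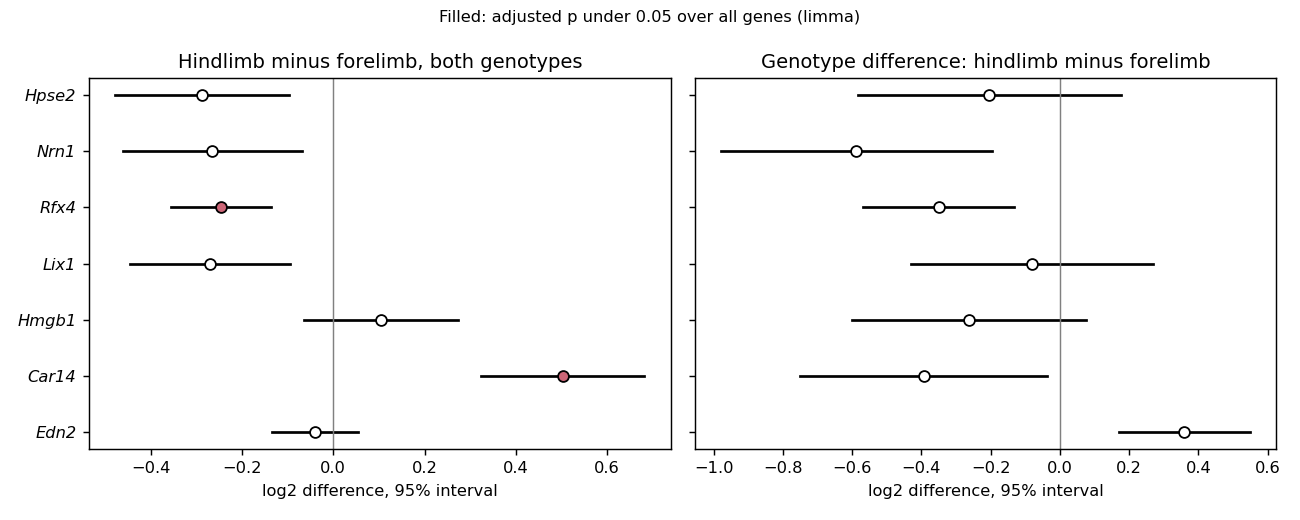
Left, hindlimb minus forelimb over both genotypes for each of the 7 genes, and right, the hindlimb minus the forelimb genotype difference, on the log2 scale with 95% intervals from the limma fit. Filled points passed after adjustment over all genes. Only Car14, at 0.50, and Rfx4, at -0.25, are filled, both in the left panel.

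The order of the 4 groups differed between genes. For Hpse2, Rfx4 and Lix1 it ran from wild-type hindlimb through wild-type forelimb and knockout hindlimb to knockout forelimb. For Nrn1 and Hmgb1 the wild-type groups changed places. Neighbouring groups in these orders overlapped, except that knockout forelimbs stood clear of knockout hindlimbs for Nrn1 and Rfx4. Car14 ran from wild-type forelimb, which stood clear of the rest, through knockout forelimb and wild-type hindlimb to knockout hindlimb. Edn2 ran from wild-type hindlimb to knockout hindlimb with both forelimb groups between, and each neighbouring pair overlapped. How many of all genes have such gaps between limb types was not counted. Left and right limbs were not told apart by any of the 7 (limma, adjusted p from 0.373 to 1.00), in a comparison that called 0% of all genes, with 9.48% at an unadjusted p under 0.05. The lowest of the 7 was Nrn1, with a left minus right difference of -0.24 (95% interval -0.41 to -0.07). Hmgb1 differed by 0.18 (0.03 to 0.34), and these 2 genes were the ones at an unadjusted p under 0.05 (limma).

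The 7 genes varied in different ways from limb to limb. After the group means were removed, the 21 pairs of genes had correlations from -0.63 to 0.62 over the 20 arrays, with a median of -0.05, and 9 of the 21 were above 0. Rfx4 and Lix1 made the highest pair, at 0.62, and Car14 and Edn2 the lowest, at -0.63. All arrays contribute to every pair, so shared RNA quality or tissue make-up of a limb enters each value. Of the lists of cell type markers, cartilage ran against Lix1 (r = -0.66). The Schwann cell, erythroid and epidermis lists ran with Lix1 (r = 0.53, 0.48 and 0.47). Such values were not particular to Lix1 and Car14. The strongest marker list was epidermis for Hpse2 (r = -0.54) and Hmgb1 (-0.46), endothelium for Rfx4 (-0.47) and Nrn1 (0.46), and macrophage for Edn2 (0.49). Hpse2 also ran against the Y-linked genes (r = -0.54), and sex was uneven between the forelimb groups.

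For each gene the 3 with the most similar levels over the 20 arrays were found by Pearson's r, which includes the group differences. For Car14 they were Selenoh, a selenoprotein gene (r = 0.95), Lhx9, a LIM-homeodomain factor gene of the distal limb (0.94), and Ptbp2, a splicing regulator gene (0.93). Within groups these values were 0.80, 0.87 and 0.77. For Rfx4 they were the zinc transporter gene Slc39a12 (0.90), the adaptor gene Shc3 (0.88) and Lix1 (0.87). For Lix1 they were Rfx4, the kinase gene Nuak1 (0.83) and Bnc1, a zinc finger gene (0.83), which was closest within groups, at 0.88. For Nrn1 they were Nbl1, which encodes a secreted BMP antagonist (0.89), Rnf133 (0.81) and Klhl7 (0.79). For Hpse2 they were Stox2 (0.86), the chaperonin gene Cct4 (0.85) and the phosphatase subunit gene Ppp2r2a (0.84). For Hmgb1 they were B230219D22Rik (0.85), Shisa4 (0.81) and Lnpk (0.80). Edn2 had the weakest partners, 4933405O20Rik (0.75), Rp1l1 (0.71) and the hexokinase gene Hk1 (0.71).

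The genes lie on 7 different chromosomes. Of the 14 nearest genes with a probe set, 1 on each side of each gene, none passed the test of genotype over both limb types (limma, lowest adjusted p 0.078, with 3 at an unadjusted p under 0.05). Their changes ran from -0.33 for F13a1, next to Nrn1, to 0.17 for Anp32e, next to Car14.

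Among genes that work with each of the 7, few passed the test of genotype, and those that did were lower in knockouts. Over all genes, 313 of the 406 calls were lower as well. Hpse, which encodes heparanase, the enzyme that cuts heparan sulfate, fell while Hpse2 was higher. Its log2 level was 5.33 in wild-type and 5.12 in knockout forelimbs, and 5.23 and 4.76 in hindlimbs (means, n = 5). Over both limb types Hpse fell by 0.33 (SE 0.064; limma, adjusted p = 0.00549). Of 34 measured genes of heparan sulfate synthesis, editing and core proteins, 2 fell and none rose, against 2.04% of all genes called in either direction. The other was Hs3st1, which encodes a sulfotransferase that adds a late sulfate group, and which fell by 0.40 (SE 0.078, adjusted p = 0.0065). The median of the list was -0.05, with -0.0021 over all genes. Both calls were lost with male arrays only, where the changes were -0.26 for Hpse and -0.31 for Hs3st1 (limma, adjusted p = 0.263 and 0.255). They were also lost once the muscle list was a covariate, with changes of -0.26 and -0.34 (limma, adjusted p = 0.189 and 0.167).

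Among the other RFX factors and primary cilium genes, none of 30 passed the test (limma, 2 at an unadjusted p under 0.05), and their changes ran from -0.13 to 0.12. Rfx1, Rfx2, Rfx3, Rfx5, Rfx6, Rfx7 and Rfx8 were within that range. Of 15 genes of HMG-box proteins, related chromatin proteins and receptors for HMGB1, none passed (limma, 4 at an unadjusted p under 0.05). The closest relatives of Hmgb1 had changes of 0.11 for Hmgb2 (SE 0.051, adjusted p = 0.328) and 0.15 for Hmgb3 (SE 0.059, adjusted p = 0.241). Of 22 carbonic anhydrase and bicarbonate transporter genes none passed (limma, 5 at an unadjusted p under 0.05). Car2, Car4, Car9 and Car12 had changes of -0.09, 0.03, 0.05 and -0.14. Of 12 genes of the neuritin family and of AMPA receptors none passed (limma, 2 at an unadjusted p under 0.05), and Nrn1l, the paralogue of Nrn1, had a change of 0.05.

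In the endothelin pathway 1 of 7 genes fell and none rose, with 1.57% and 0.466% over all genes. It was Ednrb, which encodes the endothelin receptor of melanoblasts, enteric nerve precursors and vessels, and which fell by 0.40 (SE 0.088; limma, adjusted p = 0.0174). The change of Ednrb was -0.59 in forelimbs and -0.21 in hindlimbs. Its call was lost with male arrays only (change -0.27; limma, adjusted p = 0.489), under the muscle covariate (-0.25, adjusted p = 0.439) and with same-numbered arrays of a group averaged (-0.41, adjusted p = 0.0559). Averaging does not merge limbs of 1 embryo, since knockout forelimbs 1 and 4 were averaged and differed in sex. It leaves fewer values per group. The other ligand genes, Edn1 and Edn3, had changes of 0.08 and -0.03. Of 21 genes of the LIX1 family and the Hippo growth control pathway, Ankrd1 fell by 0.41 (SE 0.095; limma, adjusted p = 0.0239) and none rose. The change of Ankrd1 was -0.70 in forelimbs and -0.12 in hindlimbs. Ankrd1 is a known target of that pathway and is also made in striated muscle. It lost its call in 7 of the 20 fits that left out 1 array, with changes from -0.40 to -0.37 and an adjusted p from 0.0503 to 0.0549. The arrays were numbers 3 and 5 among wild-type forelimbs, 7 and 8 among wild-type hindlimbs, 2 and 4 among knockout forelimbs, and 9 among knockout hindlimbs. It was also lost with male arrays only (change -0.38; limma, adjusted p = 0.405), averaged arrays (-0.41, adjusted p = 0.0701) and the muscle covariate (-0.17, adjusted p = 0.561). Lix1l, the paralogue of Lix1, had a change of -0.07 (SE 0.043, adjusted p = 0.449).

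Markers of the cell types that a limb holds were mostly lower where they were called. Over all genes 1.57% were called lower and 0.466% higher, that is 313 and 93 genes. In the mean over both limb types 5 of 16 skeletal muscle genes fell, 2 of 8 endothelial genes and 2 of 8 macrophage genes, and none of these lists had a gene that rose (limma). The median change of the muscle list was -0.37 in forelimbs and -0.03 in hindlimbs. It was -0.13 and -0.04 for the endothelial list, and -0.21 and -0.11 for the macrophage list. Of 11 neuron genes 3 fell (Gap43, Dcx and Snap25) and 1, Stmn2, rose by 0.30 (SE 0.075; limma, adjusted p = 0.0413). Stmn2 lost its call in 11 of the 20 fits without 1 array (limma, adjusted p from 0.053 to 0.0891), and kept it without numbers 1, 2 and 3 of the wild-type forelimbs, 6 and 8 of the wild-type hindlimbs, 3 and 5 of the knockout forelimbs, and 8 and 10 of the knockout hindlimbs. In those 11 fits its change was 0.27 to 0.31. It was also lost with averaged arrays (0.25; limma, adjusted p = 0.124), male arrays only (0.32, adjusted p = 0.258) and the muscle covariate (0.22, adjusted p = 0.492). Of 12 called marker genes followed through the alternatives, 2 (Gap43 and Tnnt2) passed with male arrays only and 3 (Gap43, Dcx and Tek) with the muscle covariate. That covariate is the mean of the muscle list, which holds Tnnt2, Tnnt3, Actn2 and Acta1, so its fit could not test these muscle genes. Of 11 limb mesenchyme, 6 Schwann cell, 11 epidermis, 5 erythroid and 9 cartilage genes none passed (limma, with 5, 1, 0, 3 and 1 at an unadjusted p under 0.05). The epidermis list averaged 7.22 to 7.68 in wild-type and 6.97 to 7.68 in knockout forelimbs, and the neuron list 5.18 to 5.31 and 5.10 to 5.21. The part of these cell types in the levels of the 7 genes was not tested, other than by the muscle covariate. With it the genotype differences over both limb types were 0.68 for Hpse2, 0.68 for Nrn1, 0.46 for Lix1, 0.43 for Hmgb1, 0.38 for Rfx4, 0.26 for Car14 and 0.17 for Edn2.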

How the data were processed

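Single limbs of mouse embryos were each hybridised to 1 Affymetrix ST array, with 300 ng of total RNA as input, per the labels' protocols. The deposited values are intensities on a linear scale. They came from RMA, which corrects background, normalizes between arrays and sums probes, per the submitters' processing notes. Its version is not given in the sources used here, nor are annotation and build. The scale was read from the values, with array medians from 28.6 to 31.8 and no value below 0. The number of arrays limits the precision.

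Of 35512 probe sets, 21789 carried 1 symbol in the platform annotation, 1621 several and 12101 none, and 1 was empty. Symbols were updated through RefSeq on GRCm38.p6, which served for names, neighbours and promoters. The log2 was taken with no pseudocount, and the probe set of highest mean stood for a gene, as for all 7 genes, which have 1 each. One limma 3.58.1 fit (R 4.3.3, lmFit and eBayes) with 4 group means covered all 19936 genes, with side added for left against right. The threshold was a Benjamini-Hochberg adjusted p under 0.05. Intervals are at 95%. Tables were made in Python 3.11.15.

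The 7 genes and the gene lists were chosen with earlier results of these data known. Named were the 7 genes, Lmx1b, up to 4 called genes of each pathway or marker list, close relatives, the 3 most similar genes and the nearest neighbours. Alternatives covered normalization, pseudocount, filter, probe set rule, prior, array weights, blocks, sex, muscle content and each array left out.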

Additional observations from a re-analysis of the deposited data

Results flagged for a closer look

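Car14 in wild-type forelimb replicate 5 stood at 5.61 on the log2 scale, and the nearest of the other 4 wild-type forelimbs was at 6.13, a gap of 0.754 of the range of the group, beyond Dixon's 95% limit of 0.71 for 5 samples. It was the 1 flag in 28 groups of 5 values, and chance flags about 1 group in 20. Without this array the forelimb genotype difference of Car14 was 0.50 in place of 0.62, and the limb-type difference was 0.45 (limma, adjusted p = 0.00116).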

How the results depend on the processing

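Genes called for genotype over both limb types numbered 406, and 768 under array weights, 110 under the muscle covariate, 67 with male arrays only and 216 when arrays of a group with the same description number were averaged. Without 1 array they ranged from 260 to 595, with 266 once number 3 of the wild-type forelimbs was left out, and 260 and 269 once 7 or 10 of the wild-type hindlimbs was. Calls for the difference between genotype effects numbered 4, with 9 under array weights, 2 above a mean log2 level of 5 and 0 with quantile normalization, the muscle covariate, male arrays only or averaged arrays (limma, 929, 633, 963 and 670 at an unadjusted p under 0.05), and 1 to 10 without 1 array. They were 10 without number 1 of the wild-type forelimbs, 2 without 4 or 5 of these or 2 of the knockout forelimbs, and 1 without 3 of the wild-type forelimbs, 7, 8 or 10 of the wild-type hindlimbs or 7 of the knockout hindlimbs. Limb-type calls numbered 1188, with 2159 under array weights, 28 with the muscle covariate, 284 with male arrays only and 804 to 1481 without 1 array. Left against right called 0 to 1 gene without 1 array, the 1 without wild-type hindlimb replicate 10. The cause of these shifts was not tested. The muscle covariate followed limb type, so the limb-type calls in its fit cannot well tell limb type from muscle content. Numbers in the titles and descriptions were not shown to pair the arrays. Pairs sharing one correlated from -0.31 to 0.26 between genotypes and from -0.23 to 0.23 between limb types, with 4 of 10 above 0.1 in each set. Such correlations cannot tell whether 2 limbs share an embryo. Some limbs of the same genotype, side and description number differed in sex, as the wild-type right forelimb and hindlimb of number 2 did, so that number does not mark 1 embryo. With a replicate block the calls were 356 for genotype, 3 for the difference and 994 for limb type, and of the tests of the 7 genes that of Rfx4 for limb type was lost (-0.25, adjusted p = 0.0734). Of the named marker and list genes, the block ended the calls of Stmn2 (0.30, adjusted p = 0.0909) and Actn2 (-0.43, adjusted p = 0.0631). Rfx4 and Edn2 fell below the filter on the mean log2 level and have no value there. Of 20 arrays, 5 correlated best with the array that shares their title number and 3 with the one that shares side and description number. The block and the averaged arrays were not run for left against right. Signal limits Rfx4 and Edn2 most, with 30.2% and 36.1% of genes below their mean levels.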
